A study of Homo sapiens with 24 samples.

Results

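A set of 131 genes differed between *CTNNB1* knock-out and wild-type clones in opposite directions in the colorectal cancer (CRC) cell lines HCT116 and SW480. *CTNNB1* encodes β-CATENIN. The set was drawn from 58051 gene identifiers, of which 12707 had a mean of 20 or more normalized reads in both lines. The genes were chosen by their normalized read counts in HCT116 and SW480. A gene was taken when all 4 knock-out (KO) libraries lay above all 4 wild-type (WT) libraries in 1 of the 2 lines and below them in the other, with a ratio of (group mean + 1) of at least 1.5 in each line. In 48 genes KO was higher in HCT116 and lower in SW480, and in 83 genes KO was lower in HCT116 and higher in SW480. Because this rule used the values of HCT116 and SW480, the differences in those 2 lines are given as a description, with no test. The third line, HT29, was not used by the rule.

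β-CATENIN is the transcriptional effector of the canonical WNT pathway. It is held low by a destruction complex that contains APC, and when it accumulates it enters the nucleus, binds TCF/LEF factors on DNA and activates target genes such as *AXIN2*. β-CATENIN also links cadherins to the actin cytoskeleton at adherens junctions. In the intestine the pathway maintains the crypt stem cells, and CRC cells commonly carry mutations that keep it active.

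Poly(A) RNA was sequenced from 24 libraries of CRC cell clones. HT29 and SW480 are lines with mutant *APC*, and HCT116 carries a gain-of-function mutation of *CTNNB1* itself. In each line there were 2 WT clones and 2 KO clones, each sequenced in 2 rounds, A and B. The KO clones carry a biallelic deletion of exon 7 of *CTNNB1* made with CRISPR/Cas9, and the WT clones were put through the same CRISPR/Cas9 treatment and kept an intact sequence. The groups are thus HCT116 WT (clones 4 and 6), HCT116 KO (clones 44 and 47), SW480 WT (clones 4 and 5), SW480 KO (clones 17 and 21), HT29 WT (clones 11 and 40) and HT29 KO (clones 28 and 38). With 2 clones per genotype, the difference between clones and the effect of the genotype rest on few independent lines, and the 2 rounds of a clone are repeats of it. SW480 KO cells are described in the study as entering senescence on long culture.

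Each library held between 22297049 and 29068378 reads on genes. *CTNNB1* (chromosome 3, 41236232-41301587 of GRCh37) stood at 217.7 ± 28.9 normalized reads in HCT116 KO (SD, n = 4), 1024 ± 229 in SW480 KO and 299.8 ± 34.1 in HT29 KO, which is 1.83%, 2.18% and 4.98% of the WT mean of the line. The 11 colon epithelial markers summed to between 131458 and 197518 normalized reads per library in HCT116 and SW480, with WT and KO overlapping in each. In HT29 they summed to between 325837 and 466928 in WT and between 490843 and 784659 in KO, and 4 of the 9 tested, *KRT19*, *KRT20*, *CDH17* and *LGALS4*, were called higher in KO (limma). Of all genes tested in HT29, 2.08% were called higher. *CDH17*, with a WT mean of 0.98, passed the filter of 10 normalized reads in 4 of 8 libraries through KO, which favours this direction. Of the 9, edgeR (TMM) called 2, DESeq2 4 and limma with the round as a block 1. Of the same 11 markers, 7 were tested in HCT116 and 7 in SW480 (limma). In HCT116 KO, *EPCAM* and *CDH1* were called higher and *CDX2* and *KRT20* lower. *KRT20*, with a KO mean of 0.48, passed the filter through WT. In SW480 KO, *CDX2* and *EPCAM* were called lower and none was called higher. Of all genes tested, 8.05% were higher and 5.93% lower in HCT116 KO, and 26.1% and 22.1% in SW480 KO. The 5 leukocyte markers summed to at most 26.9 in HCT116, 35.5 in SW480 and 236 in HT29. The 4 neuronal and glial markers summed to at most 67.4 in HCT116, 59.5 in SW480 and 19.6 in HT29. Of these, *SYP* had means of 18.6 in WT and 34.9 in KO of HCT116 and of 45.1 and 50.9 in SW480, and *SOX10* was at 0 in every library. In HT29 the 6 fibroblast markers summed to between 14.2 and 26.9 in the WT libraries and between 109 and 1212 in the KO libraries. Most of this was *LUM*, at 0 in WT and with a mean of 607 in KO, beside *COL1A1* (18.2 and 48.7), and the other 4 had means under 2. The leukocyte markers of HT29 summed to between 1.98 and 11.5 in WT and between 72.6 and 236 in KO, where *ITGAM*, an integrin chain, had a mean of 142. In SW480 the endothelial markers, of which 3 were matched, summed to between 10.6 and 27.4 in WT and between 118 and 234 in KO, and in HCT116 to at most 36.4. In SW480 this was *VWF*, with means of 20.2 in WT and 161 in KO, while *CDH5* and *KDR* had means under 1 in both. The fibroblast markers summed to between 289 and 443 in HCT116 and between 213 and 564 in SW480, with WT and KO overlapping. In SW480, *COL1A2* had means of 81.7 in WT and 0.46 in KO and was the 1 of 3 tested called lower (limma). It passed the filter through WT, which favours this direction. The part of these marker differences in the results was not tested. In bulk RNA, fewer cells that express a gene and less RNA per cell cannot be told apart.

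The promoters were looked at first, as TCF/LEF sites are where β-CATENIN acts on DNA. RefSeq gave windows of the 250 bases before a transcription start for 96 of the 131 genes (GRCh38.p14). The TCF/LEF core, searched as CTTTGAT and CTTTGTT on both strands, occurred in a window of 5 of these 96 genes, or 5.21%, against 8.04% of the 27305 genes with a window in the table. *KLF7*, *PDGFA*, *GRB10*, *ARHGAP26* and *SH3PXD2A* were the 5. The E-box CACGTG was found in 11.5% of the genes of the set and 7.73% of all genes, and the AP-1 site TGACTCA in 5.21% and 5.19%. A match of letters is not a site in use. One window per direction is shown because *KLF7* (higher in HCT116 KO) and *SH3PXD2A* (lower in HCT116 KO) are 2 of the genes described below with a TCF/LEF core. The *KLF7* window is chr2:207166857-207167106, and the *SH3PXD2A* window is chr10:103693479-103693728, each written 5′ to 3′ along the gene's own minus strand, with the core in capitals. The core of *SH3PXD2A* lies on the opposite strand and is therefore read as its reverse complement. Both genes have further annotated starts whose windows hold no TCF/LEF core.
KLF7: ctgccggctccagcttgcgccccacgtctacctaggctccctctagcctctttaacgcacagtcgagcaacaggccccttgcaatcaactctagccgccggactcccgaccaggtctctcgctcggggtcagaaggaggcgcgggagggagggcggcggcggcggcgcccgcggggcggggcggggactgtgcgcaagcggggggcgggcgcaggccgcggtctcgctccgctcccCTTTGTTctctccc
SH3PXD2A: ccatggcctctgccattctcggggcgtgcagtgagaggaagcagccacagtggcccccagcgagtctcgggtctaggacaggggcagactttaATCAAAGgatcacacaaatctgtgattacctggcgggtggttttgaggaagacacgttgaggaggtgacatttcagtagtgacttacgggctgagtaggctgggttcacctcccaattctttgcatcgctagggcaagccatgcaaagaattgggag

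Among the 12707 genes with a mean of 20 or more in both lines, KO was above WT by the same thresholds in 6.0% in HCT116 and 14.2% in SW480, and below it in 3.58% and 9.09%. The 131 genes were 1.03% of these 12707. Of the 662 genes that passed in both lines, 400 were higher in KO in both, 131 were lower in KO in both and the other 131, or 19.8%, went in opposite directions. Each percentage follows from the values that chose the genes.

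The differences were mostly between 1.5-fold and 4-fold. In the 48 genes higher in HCT116 KO, the median ratio was 2.07 in HCT116 and 2.17 in SW480, and 5 and 10 of them exceeded 4-fold. In the 83 genes lower in HCT116 KO, the median ratios were 2.20 and 2.46, and 10 and 22 genes exceeded 4-fold. Clones of one genotype could differ strongly within a line, as the 2 KO clones of HCT116 were more than 2-fold apart in 19 of the 131 genes and the 2 WT clones in 8. In SW480 the corresponding numbers were 9 and 8. Every pairing of a KO clone with a WT clone reached 1.5-fold in both lines in 61 of the 131 genes, 21 of them higher and 40 lower in HCT116 KO. At the edge of the rule, *MIR9-1HG*, a microRNA host transcript, passed with a smaller ratio of 1.5001 and *PLLP*, a myelin-associated membrane protein, with 1.52, whereas *PKP3* (1.49) and *LMLN* (1.497) did not. *KCND3* and *EBI3* passed with line means of 22.9 and 21.3, and *ZNF433-AS1* and *WNT10A* missed with 19.6 and 19.7.

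**Figure D1:**
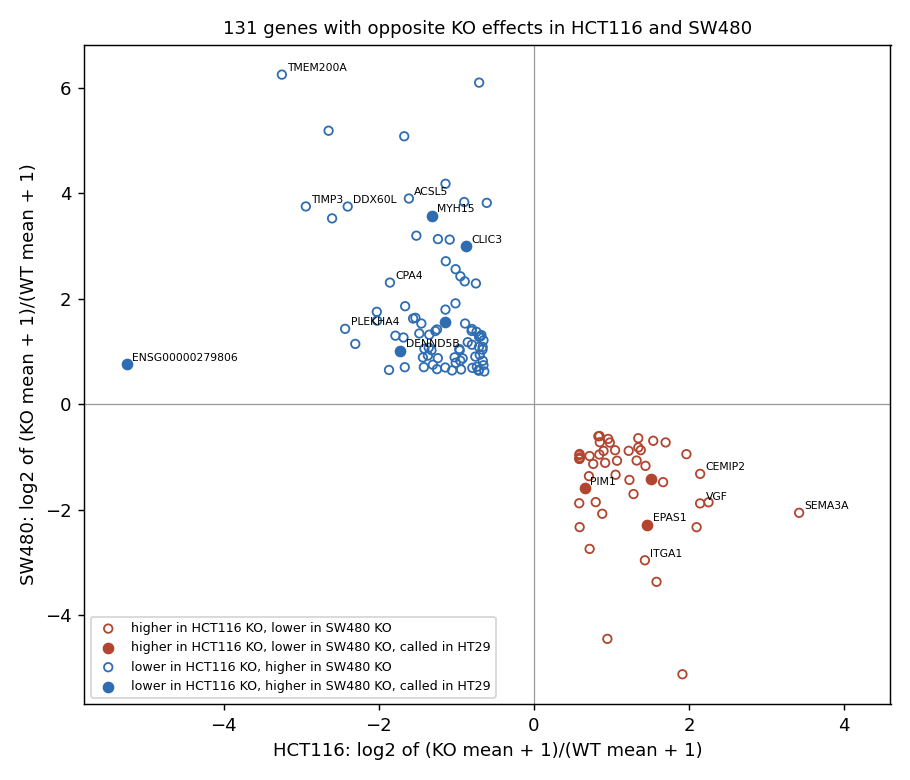
Log2 ratio of KO over WT, computed on (group mean + 1), in HCT116 (horizontal) and SW480 (vertical) for the 131 genes. Each point is 1 gene and filled points are the 8 genes called in HT29. The 48 genes at the lower right and the 83 at the upper left are separated from 0 on both axes by the rule that chose them.

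Below, the 4 values of a group are normalized reads in the order of the clones given above, rounds A and B of the first clone and then of the second. Among the genes higher in HCT116 KO, *EPAS1* (ENSG00000116016, chromosome 2, 46520806-46613836, plus strand in GRCh37) had the highest levels of the named genes. It encodes HIF-2α, a hypoxia-inducible transcription factor. In HCT116 it measured 933, 877, 1269 and 914 in WT and 2982, 3247, 2124 and 2670.1 in KO, a 2.76-fold higher mean in KO. In SW480 the values were 14099, 11350.4, 11665 and 12789.6 in WT and 3259, 3139, 1904 and 1926 in KO, a 4.88-fold lower mean. The WT levels of both lines thus lay more than 10-fold apart, while the KO libraries of HCT116 and SW480 overlapped.

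*SEMA3A*, a secreted semaphorin that guides axons and vessels, showed the largest HCT116 ratio of the named genes of this direction. It measured 76.1, 71.5, 90.6 and 63.8 in HCT116 WT and 849.9, 888, 659 and 876 in HCT116 KO, 10.7-fold higher. In SW480 WT it measured 172, 251, 143 and 85.1, against 78.1, 71.6, 0.934 and 2.88 in SW480 KO, 4.16-fold lower. In SW480 the 2 KO clones differed from each other, clone 21 being near 0 and clone 17 just under the lowest WT library. *VGF*, a precursor of secreted neuropeptides, went the same way. Its means were 286 ± 66.4 in HCT116 WT and 1269 ± 466 in HCT116 KO (SD, n = 4), and 832 ± 209 in SW480 WT and 226 ± 21.4 in SW480 KO.

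*C1orf116*, which encodes a protein known as specifically androgen-regulated, measured 47.7, 39.9, 438 and 365 in HCT116 WT and 1112, 857, 1016 and 841 in HCT116 KO. The 2 HCT116 WT clones were far apart, so that the ratio of 4.28 depends on which WT clone is used. In SW480 it measured 3118, 2963, 2223 and 1882 in WT and 499, 489.9, 527 and 509.8 in KO, where both KO clones were alike. *KLF7*, a Krüppel-like transcription factor, had lower levels, at 66.8 ± 15.5 in HCT116 WT, 158 ± 35.4 in HCT116 KO, 858 ± 122 in SW480 WT and 317 ± 9.04 in SW480 KO. The library preparation did not keep strand, and an exon of *KLF7* overlaps the antisense transcript *MYOSLID*, so reads of the pair cannot be told apart.

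The remaining named genes of this direction include membrane and scaffold proteins. *CEMIP2*, a cell surface hyaluronidase, had means of 381 ± 63.2 in HCT116 WT and 1689 ± 414 in HCT116 KO, and 6002 ± 852 in SW480 WT and 2407 ± 175 in SW480 KO. *SNTB1*, a syntrophin of the dystrophin complex, was 4.77-fold higher in HCT116 KO and 3.62-fold lower in SW480 KO, and its exons overlap *MTBP* on the other strand. *TESC*, the calcium-binding protein tescalcin, was 3.18-fold higher and 2.78-fold lower. *ABTB3*, a protein with ankyrin repeats and a BTB domain, was 2.44-fold higher and 3.25-fold lower. All 4 had WT and KO libraries apart in both lines, as the rule requires.

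*ITGA1* encodes the integrin α1 chain, a collagen receptor subunit, and was the single member of the set among 25 integrin subunits. It measured 38.5, 51.0, 49.0 and 31.4 in HCT116 WT and 101, 90.4, 135 and 139 in HCT116 KO. In SW480 it measured 2742, 2367, 4009.7 and 3137 in WT and 268, 268, 520.1 and 520.3 in KO, 7.76-fold lower. *PELO* lies in *ITGA1* on the same strand and shares exon sequence, which the counting may split. By limma with Benjamini-Hochberg adjustment, 16 of the 22 integrin subunits tested in SW480 were higher in KO and 3 were lower, where 26.1% of all genes tested were higher and 22.1% lower. Of the 16, *ITGAM*, *ITGB3*, *ITGB6* and *ITGB7* had WT means under 10 and passed the filter of at least 10 normalized reads in 4 of 8 libraries through KO, and *ITGA9*, among the 3, passed it through WT, so the filter favoured the direction they have and no median is given. The 3, named after their values were seen, were *ITGA1*, *ITGA2B* and *ITGA9*, the last 2 with WT means of 26.3 and 23.2. In HCT116, 5 of 15 tested subunits were higher in KO and none was lower, with a median of 0.42 against -0.01 over all genes, of which 8.05% were called higher.

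**Figure D2:**
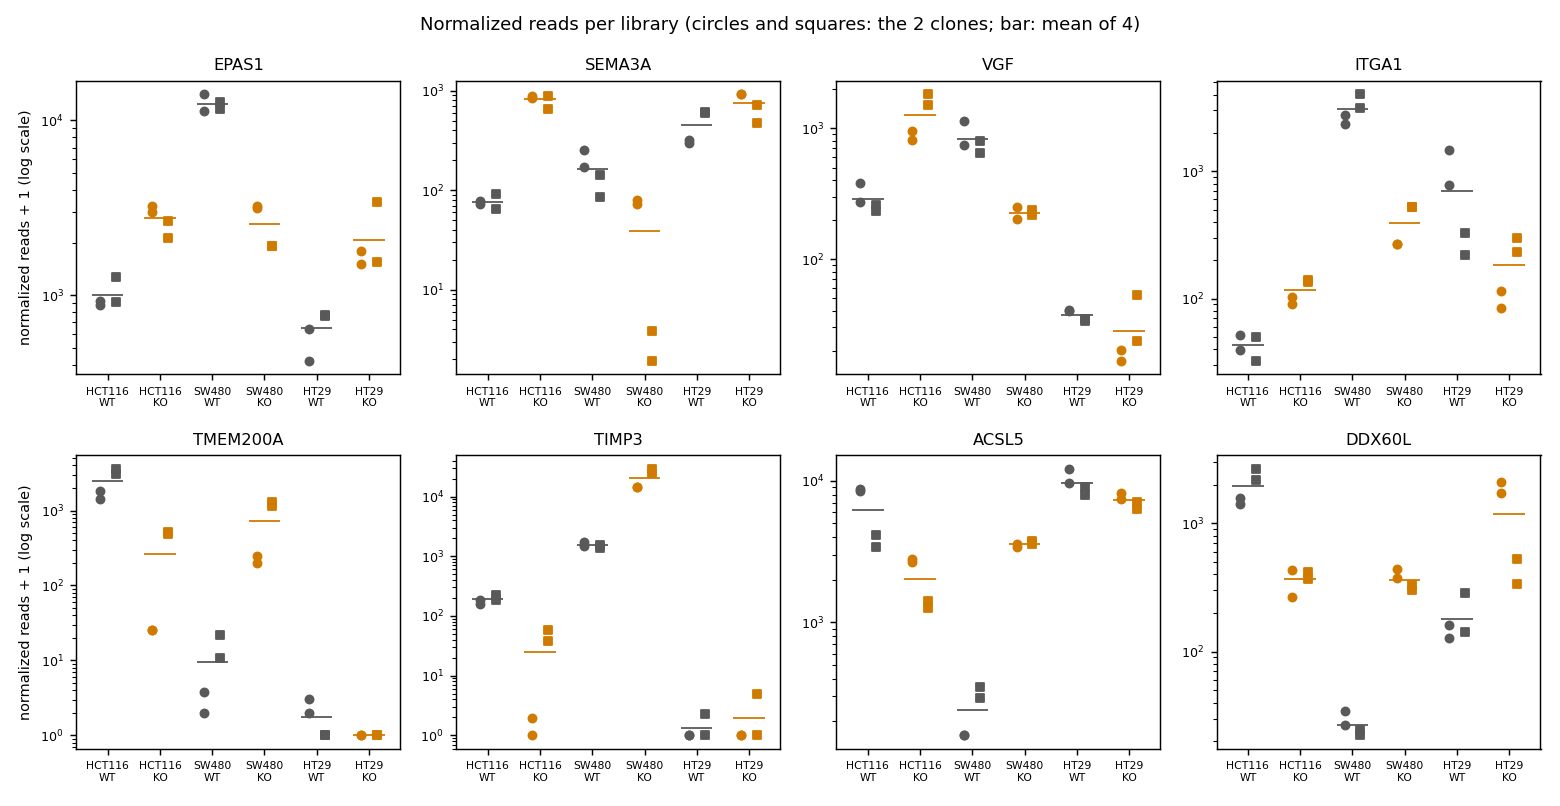
Normalized reads + 1 on a log scale in each of the 24 libraries for 4 genes higher in HCT116 KO (upper row) and 4 genes lower in HCT116 KO (lower row). Grey points are WT and orange points KO, circles and squares are the 2 clones of a group, and bars are means of 4 libraries. In *EPAS1* the KO libraries of HCT116 and SW480 meet between the 2 WT groups, and in *TMEM200A* and *TIMP3* the 2 KO clones of HCT116 lie far apart.

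Among the genes lower in HCT116 KO, *TMEM200A* (ENSG00000164484, chromosome 6, 130687162-130764212, plus strand in GRCh37), a transmembrane protein, led the ordering. In HCT116 it measured 1820.1, 1440.4, 3608 and 3088 in WT and 24.6, 24.5, 482 and 512 in KO. In SW480 it measured 1.01, 2.76, 9.65 and 20.6 in WT and 199, 248, 1148 and 1279.7 in KO. It was nearly absent from SW480 WT and abundant in HCT116 WT, and in KO the ranges of the 2 lines overlapped. Clone 44 of HCT116 KO lay far below clone 47.

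*TIMP3*, a matrix-bound inhibitor of metalloproteinases, measured 185, 159.6, 224 and 185 in HCT116 WT and 0.983, 0, 37.5 and 56.1 in HCT116 KO. In SW480 it was already high in WT, at 1475, 1739, 1387 and 1565, and reached 14573, 14215, 29212 and 24838 in KO, 13.4-fold higher. The gap between the lines for *TIMP3* was thus wider in KO than in WT.

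*ACSL5* encodes an acyl-CoA synthetase that activates long-chain fatty acids. It measured 8470.1, 8768, 4177 and 3426 in HCT116 WT and 2797, 2660.2, 1262 and 1405 in HCT116 KO, 3.06-fold lower. In SW480 it measured 158, 158, 350.4 and 289 in WT and 3402, 3556, 3556 and 3767 in KO, 14.9-fold higher and alike in the 2 KO clones. Its exons overlap those of *ZDHHC6* on the other strand. *PPP3CA*, the catalytic subunit of the phosphatase calcineurin, had little spread, with 3939 ± 317 in HCT116 WT, 1365 ± 339 in HCT116 KO, 1019 ± 94.7 in SW480 WT and 3172 ± 312 in SW480 KO. The lncRNA *FLJ20021*, which overlaps *PPP3CA* on the other strand, was also in the set with the same direction, and reads of the 2 cannot be told apart.

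Several of these genes act on proteins outside the cell. *KLK6*, a secreted serine protease of the kallikrein family, was 2.94-fold lower in HCT116 KO and 3.08-fold higher in SW480 KO. Its neighbour *KLK10*, named here after its values were seen, was 2.12-fold lower and 8.69-fold higher. *CPA4*, a secreted carboxypeptidase, was 3.62-fold lower and 4.94-fold higher. *PLEKHA4*, a phosphoinositide-binding protein, *L3MBTL3*, a reader of methylated lysine, and *DDX60L*, a helicase of the interferon response, were 5.41-fold, 2.73-fold and 5.28-fold lower in HCT116 KO, and 2.69-fold, 2.89-fold and 13.4-fold higher in SW480 KO. Exons of *KLK6* and *L3MBTL3* overlap antisense transcripts.

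The levels of the 2 lines often changed places. In the 48 genes higher in HCT116 KO, the WT mean was higher in SW480 in 37, and the KO mean was higher in HCT116 in 34. In the 83 genes lower in HCT116 KO, the WT mean was higher in HCT116 in 55 and the KO mean was higher in SW480 in 72. The order of the 2 lines differed between WT and KO in 67 of the 131 genes. In 61 genes the KO levels of the lines were closer together than the WT levels, and the 2 directions differed in this. The median gap between the lines was 3.98-fold in WT and 2.69-fold in KO for the genes higher in HCT116 KO, and 2.52-fold in WT and 3.88-fold in KO for the lower ones. Read counts are compared here between lines for the same gene, and the direction of each shift is set by the rule.

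**Figure D3:**
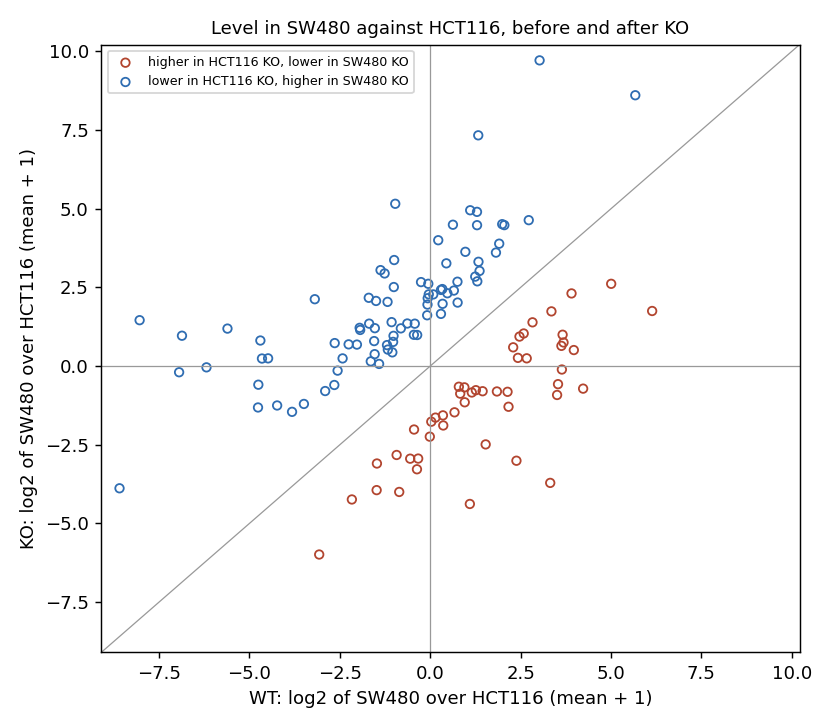
Log2 ratio of SW480 over HCT116, on (group mean + 1), in WT (horizontal) and in KO (vertical) for the 131 genes. Points below the diagonal are the 48 genes higher in HCT116 KO and points above it the 83 lower ones, which the rule fixes. The 67 points in the upper left and lower right quadrants are genes in which the line with the higher level changed.

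By textbook roles, assigned after the values were seen and with no test, 56 of the 131 genes fell into 8 groups. Of 9 genes placed as transcriptional regulators, 7 were higher in HCT116 KO and lower in SW480 KO (*EPAS1*, *KLF7*, *BARX2*, *FOXO1*, *GFI1*, *ZFPM2* and *ARID3B*) and 2 were the reverse (*MN1* and *L3MBTL3*). The groups are not complete. *ZNF493*, a zinc-finger gene, and *MORC4*, both lower in HCT116 KO and higher in SW480 KO, were placed in none of them. The split of 7 and 2 therefore depends on which genes were placed in the group. Of 6 adhesion and junction proteins, 4 were higher in HCT116 KO, namely *ITGA1*, the desmosomal genes *DSG2* and *PKP2*, and *MPZL2*, while *ICAM1* and *MDGA1* were lower. The 7 cell surface receptors comprised 1 that was higher, the interleukin-6 receptor gene *IL6R*, and 6 that were lower in HCT116 KO. These 6 were the neurotrophin receptor gene *NGFR*, the neurotensin receptor gene *NTSR1*, the serotonin receptor gene *HTR7*, the ATP-gated channel gene *P2RX7*, *GPRC5B* and *ADGRB2*.

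Among the receptors, with values given after they were seen, *NGFR* reached the highest level. It had means of 160.2 ± 21.7 in HCT116 WT and 72.1 ± 36.0 in HCT116 KO, and of 8224 ± 902 in SW480 WT and 28504 ± 3164 in SW480 KO. *NTSR1* had 4666 ± 363 in HCT116 WT and 2503 ± 1080.5 in HCT116 KO, with 208 ± 69.6 in SW480 WT and 2970.1 ± 158 in SW480 KO. The 7 secreted ligands and hormone precursors were divided, with *SEMA3A*, *VGF* and *PDGFA* higher in HCT116 KO and *PGF*, *GAS6*, *EBI3* and *SCG2* lower. Of 8 cytoskeletal and motor proteins, 3 were higher (*SNTB1*, *TMOD1* and *MYO5B*) and 5 lower in HCT116 KO (*PALLD*, *CORO2B*, *SH3PXD2A*, *MYH15* and *TUBB4A*). *PALLD*, which bundles actin and is also given after its values were seen, was 4.94-fold lower in HCT116 KO, from 21133 ± 1303 in WT to 4280.0 ± 2624, and 2.21-fold higher in SW480 KO.

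The remaining groups leaned to the second direction. Of 5 proteases and protease inhibitors, *PCSK5* was higher in HCT116 KO and *KLK6*, *KLK10*, *CPA4* and *TIMP3* were lower. Of 8 kinases and phosphatases, *PIM1* and *PHLPP1* were higher and *PPP3CA*, *PLK2*, *RPS6KA5*, *SLK*, *WNK4* and *PFKFB4* were lower. Of 6 lipid, steroid and xenobiotic enzymes, *UGT8* was higher and *ACSL5*, *PNPLA3*, *GPD1*, *CYP1A1* and *CYP1B1* were lower. By biotype, 119 of the 131 genes were protein-coding and 11 were lncRNAs. The set held 83 genes of the second direction in all, so the split of a small group has to be read against that share.

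Some members were neighbours in the genome (GRCh37). On chromosome 4, *DDX60L* overlaps *PALLD*, and *DDX60* lies 37852 bases from *DDX60L*, all 3 lower in HCT116 KO and higher in SW480 KO. *DDX60* and *DDX60L* are close paralogs, whose reads the counting may not have separated fully. *KLK6* and *KLK10* on chromosome 19 are 43066 bases apart, and *GAS6* and its divergent lncRNA *GAS6-DT* on chromosome 13 are 36 bases apart. *TMEM200A* lies 224568 bases from *L3MBTL3* on chromosome 6. Neighbours also went apart, as *PIM1* and *MDGA1* on chromosome 6, 455251 bases from each other, had opposite directions. An exon of 37 of the 131 genes overlapped another expressed gene, and the counting did not use strand.

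HT29 was then examined as the line that played no part in the choice. Of the 131 genes, 97 passed the filter of at least 10 normalized reads in 4 of the 8 HT29 libraries and were tested, and 34 did not pass. In 16 genes no HT29 library exceeded 3 reads, among them *CPA4*, which is listed at 0 in all 8, and *KLF7*. Of the 97 genes, 8 were called at an adjusted p of 0.05 (limma, Benjamini-Hochberg adjustment over 14921 genes), or 8.25%, where the background over all tested genes was 2.56% (2.08% higher and 0.476% lower in KO) and 1.91% over tested genes with a mean of at least 20 in HCT116 and SW480. Of the called genes, 6 were higher in KO and 2 were lower. Without adjustment, 32 of the 97, or 33.0%, had a p under 0.05, beside 16.2% of all tested genes. In 5 of the 97 genes the WT mean was under 10 and in 1 the KO mean, so that they passed the filter through the other group, which favours a difference in that direction, and 1 of these 6, *TTC9*, is among the 8. The WT and KO libraries of HT29 did not overlap in 23 of the 97 genes, 17 with KO above and 6 with KO below, which is 23.7% against a background of 13.0% (8.31% above and 4.71% below). The called share is sensitive to the method and to single libraries, and so is its background. DESeq2 called 18 members and 8.3% of all genes, and edgeR 7 members and 2.19% (TMM) or 2.22% (RLE). Limma called 0 members and 0 genes when the 2 rounds of each clone were summed (15 members, or 15.5%, and 5.72% of all genes at an unadjusted p under 0.05), and between 3 and 9 members and 0.978% to 2.86% of all genes when 1 HT29 library was left out.

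The set did not follow one of the 2 lines as a whole. Among the 37 tested genes higher in HCT116 KO, 19 had a positive and 18 a negative HT29 log2 fold change, with a median of 0.01. Among the 60 tested genes lower in HCT116 KO, 35 were positive and 25 negative, with a median of 0.27, whereas the median over all 14921 genes was 0.03. The median size of the HT29 change was 0.61 over the 97 genes and 0.31 over all tested genes. HT29 clones also disagreed with each other. The 2 KO clones were more than 2-fold apart in 41 of the 97 genes, beside 21.3% of all tested genes. The 2 WT clones were more than 2-fold apart in 29 of the 97, beside 13.0% of all tested genes. The part of this spread between clones in the HT29 differences was not tested. The 4 pairings of a KO clone with a WT clone did not all have the same sign in 65 of the 97 genes, and in 63.7% of all tested genes.

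**Figure D4:**
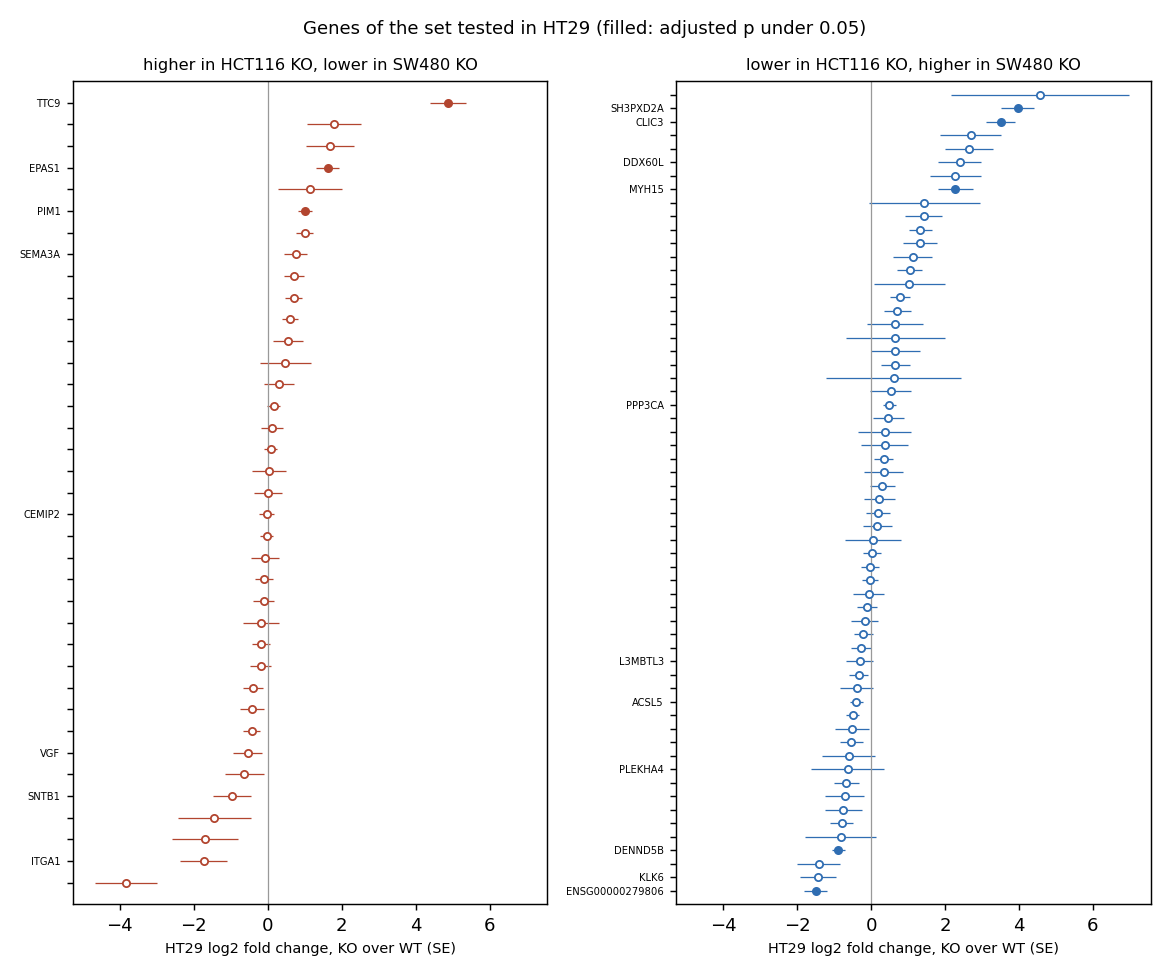
HT29 log2 fold change of KO over WT with its standard error (limma, 4 libraries per group) for the 37 tested genes higher in HCT116 KO (left) and the 60 tested genes lower in HCT116 KO (right), ordered by value. Filled points are the 8 genes with an adjusted p under 0.05. The names shown are those of the called genes and of others described in the text, and both panels spread to either side of 0, up to 4.88 on the left and 4.57 on the right.

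All 3 called genes of the first direction were higher in HT29 KO, the same side as in HCT116. *TTC9* (ENSG00000133985, chromosome 14, 71108633-71142083, plus strand in GRCh37), which encodes a tetratricopeptide repeat protein, measured 13.4, 3.04, 2.96 and 11.3 in HT29 WT and 281, 244, 178 and 174 in HT29 KO (log2 fold change 4.88, SE 0.49, adjusted p = 0.0015 by limma). Its WT mean of 7.68 lies under the filter's minimum of 10, so it was tested because its KO group was high. In HCT116 KO it measured 226, 179.9, 267 and 287 against 72.5, 75.2, 103 and 81.9 in HCT116 WT. In SW480 it measured 1251, 1439, 808 and 842 in WT and 325, 322, 472 and 499 in KO. The 3 KO groups thus lay between means of 219 and 405, while the WT means ran from 7.68 to 1085.

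*EPAS1* measured 643, 421, 767 and 760.4 in HT29 WT and 1506, 1785, 3399 and 1543 in HT29 KO (log2 fold change 1.62, SE 0.31, adjusted p = 0.0313 by limma), with every KO library above every WT library. The KO mean of HT29 was 2058, beside 2756 for HCT116 KO and 2557 for SW480 KO, against WT means of 648, 998 and 12476. *PIM1*, a serine/threonine kinase induced by cytokines, measured 216, 279.8, 289 and 341 in HT29 WT and 586, 478, 552 and 629 in HT29 KO (log2 fold change 1.00, SE 0.19, adjusted p = 0.0331 by limma). In HCT116 *PIM1* had 355 ± 42.6 in WT and 561 ± 106 in KO, and in SW480 971 ± 90.3 and 322 ± 41.4. The call of *EPAS1* was lost when any single HT29 library other than those of KO clone 38 was left out, with adjusted p between 0.0564 and 0.0834 in limma, and that of *PIM1* without any single library other than round B of KO clone 38, with adjusted p between 0.0533 and 0.105.

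Of the second direction, 3 genes were higher in HT29 KO, as in SW480. *CLIC3*, a member of the chloride intracellular channel family, measured 71.1, 86.2, 75.1 and 130.3 in HT29 WT and 1389, 917, 486 and 1658 in HT29 KO (log2 fold change 3.50, SE 0.39, adjusted p = 0.00261 by limma). *SH3PXD2A*, the invadopodia scaffold TKS5 whose window is printed above, measured 27.8, 12.2, 42.5 and 62.6 in HT29 WT and 474, 499, 660.2 and 392 in HT29 KO (log2 fold change 3.96, SE 0.45, adjusted p = 0.00316 by limma). *MYH15*, a myosin heavy chain, measured 30.7, 12.2, 31.6 and 15.03 in HT29 WT and 67.4, 71.4, 220.1 and 109 in HT29 KO (log2 fold change 2.28, SE 0.47, adjusted p = 0.0435 by limma). In these 3 genes all HT29 KO libraries exceeded all HT29 WT libraries, and the WT levels were low throughout.

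In HCT116 the same genes were lower in KO. *CLIC3* measured 136, 112, 161 and 144 in HCT116 WT and 39.3, 45.2, 110.3 and 104 in HCT116 KO, where clone 47 lay just under the lowest WT library. *SH3PXD2A* had 439.5 ± 68.0 in WT and 198 ± 53.4 in KO, and *MYH15* 1007 ± 113 and 403 ± 161. In SW480, *CLIC3* was 7.94-fold, *SH3PXD2A* 2.95-fold and *MYH15* 11.9-fold higher in KO.

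The other 2 called genes of the second direction were lower in HT29 KO, as in HCT116. *DENND5B*, which encodes a protein with a DENN domain that acts on RAB GTPases, measured 1389, 1089, 1144 and 1199 in HT29 WT and 502, 623, 753 and 757 in HT29 KO (log2 fold change -0.88, SE 0.18, adjusted p = 0.0411 by limma). The transcript ENSG00000279806, annotated as awaiting experimental evidence (chromosome 17, 38629806-38631541, minus strand in GRCh37), measured 292, 189, 388 and 408 in HT29 WT and 91.5, 92.0, 163 and 98.5 in HT29 KO (log2 fold change -1.49, SE 0.31, adjusted p = 0.0436 by limma). In HCT116 it measured 62.4, 65.9, 46.2 and 45.7 in WT and 0, 0.942, 0 and 0.952 in KO, which is at most 1 read per KO library. In SW480 its values were 128, 161, 123 and 148 in WT and 229, 216, 206 and 296 in KO. It was the member with the lowest HCT116 KO level, although SW480 KO libraries held more than 200 reads. The call of *MYH15* was lost without any single HT29 library, with adjusted p up to 0.12 in limma, that of *DENND5B* without any but round B of KO clone 38 (up to 0.126), and that of ENSG00000279806 without any but round A of KO clone 38 or round B of WT clone 11 (up to 0.141). Those of *TTC9*, *CLIC3* and *SH3PXD2A* held without any 1 library.

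**Figure D5:**
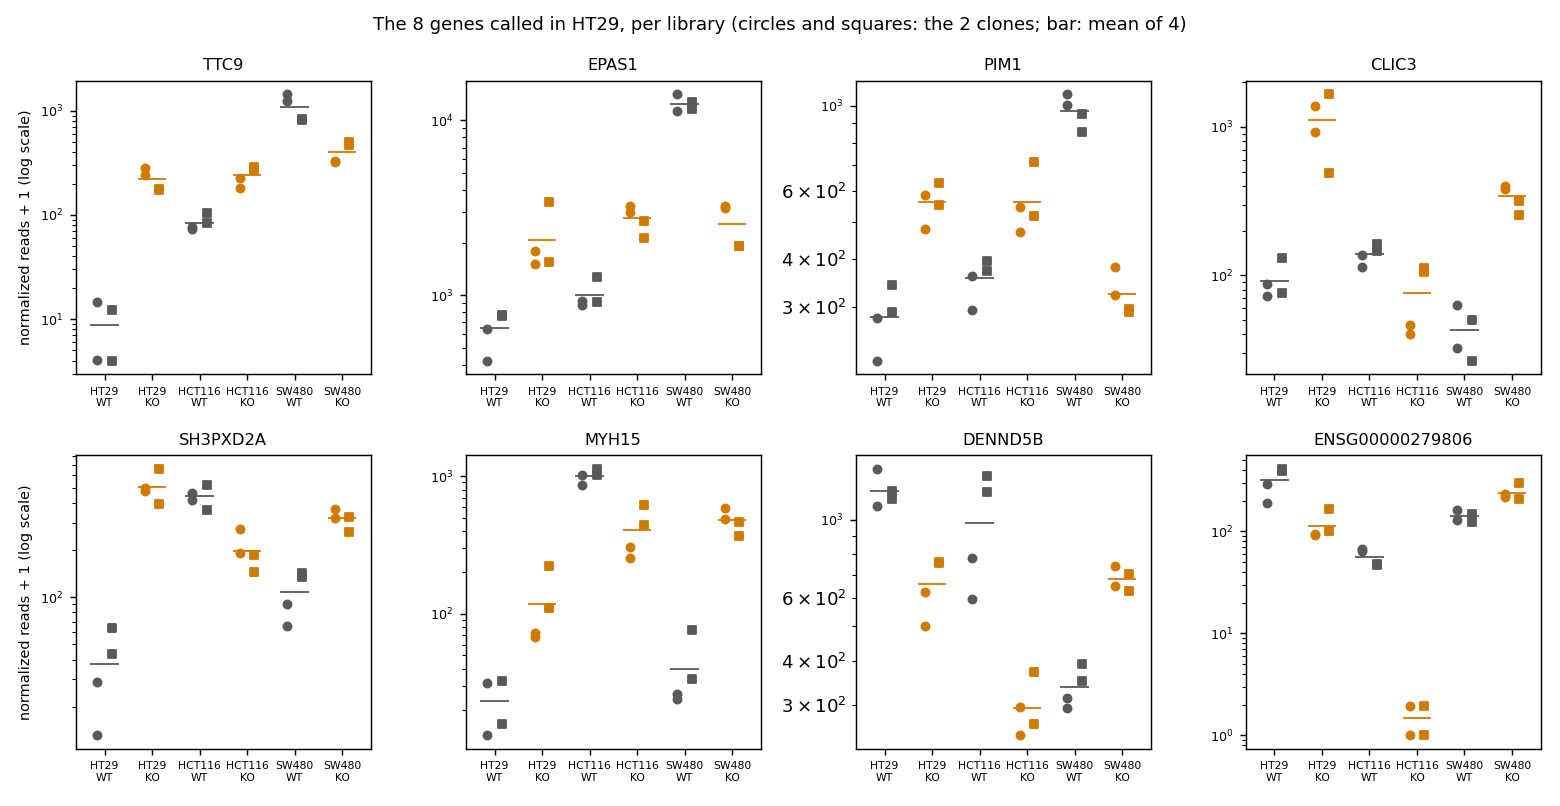
Normalized reads + 1 on a log scale in each library for the 8 genes called in HT29, with HT29 first, then HCT116 and SW480. Grey points are WT and orange points KO, circles and squares are the 2 clones, and bars are means of 4 libraries. The scale differs between panels, and in all 8 the HT29 WT and KO libraries are apart.

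The large named genes behaved variously in HT29. *C1orf116* and *SEMA3A* had log2 fold changes of 0.70 (adjusted p = 0.158) and 0.75 (adjusted p = 0.291) and *CEMIP2* of -0.03 (adjusted p = 0.962), all by limma. *DDX60L* measured 161, 128, 285 and 140.3 in HT29 WT and 2108, 1731, 524 and 337 in HT29 KO (adjusted p = 0.0757 by limma), with the 2 KO clones several-fold apart. *KLK6* measured 12953, 12491, 21247 and 21600.1 in WT and 11889.8, 11705, 3236 and 3121 in KO (adjusted p = 0.191 by limma), where KO clone 28 lay near WT clone 11. *ITGA1* was 1466, 771, 329 and 219 in WT and 83.5, 114, 296 and 231 in KO (adjusted p = 0.212 by limma), and its groups overlapped. *TMEM200A* and *TIMP3*, among the largest members in HCT116 and SW480, had at most 3.90 normalized reads in any HT29 library.

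Beside the 131 genes, 7 lists of genes were examined, in which *EPAS1* and *ITGA1* are counted although the rule chose them. By limma with Benjamini-Hochberg adjustment, 8.05% of the genes tested in HCT116 were higher in KO and 5.93% lower, in SW480 26.1% and 22.1%, and in HT29 2.08% and 0.476%. None of the 24 WNT feedback and target genes was in the set. The set held 1.03% of all genes with a mean of 20 or more in both lines, so this absence is near that share. *LGR5*, *ASCL2*, *LEF1*, *DKK4*, *WIF1*, *APCDD1*, *PROX1* and *TERT* lacked that mean in HCT116 or SW480 and could not enter. Of the 24 targets the calls were 2 higher and 7 lower in KO of 17 tested in HCT116, 5 higher and 14 lower in KO of 20 tested in SW480 and 0 higher and 5 lower in KO of 16 tested in HT29, with median log2 fold changes of -0.64, -2.18 and -0.73. In HT29, edgeR called 3 of them and DESeq2 8. In SW480, *NOTUM* and *ASCL2* had KO means under 10 and passed the filter through WT, which favours lower calls and a lower median. *AXIN2*, the feedback target of the pathway, was lower in KO in all 3 lines, with log2 fold changes of -5.25 in HCT116, -4.74 in SW480 and -3.70 in HT29. Among the 9 TCF factors and TLE corepressors, of which 8 were matched, the calls were 1 higher and 2 lower in KO of 6 tested in HCT116, 2 higher and 4 lower in KO of 8 tested in SW480 and 0 higher and 1 lower in KO of 6 tested in HT29, with median log2 fold changes of -0.14, -0.62 and -0.19. The 16 hypoxia response genes included *EPAS1* as the single member of the set. In that list the calls were 1 higher and 1 lower in KO of 14 tested in HCT116, 6 higher and 5 lower in KO of 14 tested in SW480 and 1 higher and 0 lower in KO of 15 tested in HT29, with median log2 fold changes of -0.15, 0.04 and -0.13.

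In HCT116 the hypoxia gene called lower was the glucose transporter gene *SLC2A1* (*GLUT1*), and the one called higher was *EPAS1*. With the sequencing round as a block in limma, a pairing that held in HCT116 alone, *BNIP3* was also called lower (adjusted p = 0.0457) and *PDK1* higher (adjusted p = 0.0465), which makes 2 in each direction. In the same fit *MYC* was no longer called among the WNT targets (adjusted p = 0.0515), which leaves 6 lower, and *GRHL2* was added to the epithelial-mesenchymal genes (adjusted p = 0.0348), which makes 6 higher. All these genes are named after their values were seen. The lists of 20 enterocyte and secretory genes, 16 epithelial-mesenchymal genes and 43 nuclear receptors held no member of the set, which is also near the share of 1.03%. No enterocyte or secretory gene had a mean of 20 or more in both HCT116 and SW480, so none could enter it. Genes outside the rule also went in opposite directions. By limma, *NR4A2*, *NR2F2* and *TCF7L2* were called lower in HCT116 KO and higher in SW480 KO, and *NR5A2*, *ESRRB* and *EPCAM* the reverse. The log2 fold changes of *TCF7L2* were -1.57 in HCT116 and 0.44 in SW480. For the enterocyte and secretory genes, the calls were 1 higher and 1 lower in KO of 3 tested in HCT116, 2 higher and 1 lower in KO of 3 tested in SW480 and 3 higher and 0 lower in KO of 9 tested in HT29. No median is given for it, as 5 of the 9 tested in HT29 passed the filter through 1 group, namely *GUCA2A*, *MUC2*, *FCGBP* and *REG4* with WT means under 10 and *CA4* with a KO mean under 10, as did 2 of the 3 in SW480 and 1 of the 3 in HCT116. In the epithelial-mesenchymal list the calls were 5 higher and 1 lower in KO of 13 tested in HCT116, 4 higher and 3 lower in KO of 9 tested in SW480 and 0 higher and 0 lower in KO of 9 tested in HT29, with median log2 fold changes of 0.42, 0.34 and 0.33, where limma gave 1 gene at an unadjusted p under 0.05 in HT29 and edgeR and DESeq2 called 0. For the nuclear receptors the calls were 8 higher and 5 lower in KO of 32 tested in HCT116, 12 higher and 7 lower in KO of 32 tested in SW480 and 0 higher and 0 lower in KO of 30 tested in HT29, with median log2 fold changes of 0.19, 0.16 and -0.06, where limma gave 7 genes at an unadjusted p under 0.05 in HT29, edgeR called 0 and DESeq2 4. Among the receptors in SW480, *PPARG* and *THRB* had WT means under 10 and passed the filter through KO. *NR5A2* and *ESRRB* had KO means under 10 and passed it through WT. Of the 15 integrin subunits tested in HT29, 1 was higher in KO (*ITGAM*) and none was lower, with a median of 0.21. *ITGAM* and *ITGA9* had WT means under 10 there and passed the filter through KO, which favours higher calls and a higher median. In HT29, edgeR and DESeq2 called 1 and 2 of the TCF and TLE genes, 2 and 2 of the hypoxia genes, 3 and 5 of the enterocyte and secretory genes and 1 and 4 of the integrin subunits. Over the 7 lists, the round block gave 41 calls in HCT116 in place of 39. A group mean under 10 was found in 2 of the 99 list genes tested in HCT116, 13 of 106 in SW480 and 9 of 99 in HT29.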

How the data were processed

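Poly(A) RNA of 24 libraries, from 2 WT and 2 *CTNNB1* KO clones each of HT29, HCT116 and SW480 in 2 rounds, was sequenced from unstranded TruSeq v2 libraries. Per the submitters' processing notes, bcl2fastq, STAR 2.7.5b, featureCounts 2.0.1 and DESeq2 2.11.40.6 were used with GRCh37. The values the authors deposited per library are a normalized signal, read counts per gene divided by a size factor, with no depth stated. A second kind of deposited table, per line, holds the authors' fold changes and p-values and was not used. No per-sample column was left unmapped.

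Dividing each library by the value of 1 read (0.917 to 1.30 normalized reads) gave whole reads for 100% of values (tolerance 0.01), and 22297049 to 29068378 reads on genes per library. These recovered reads served count tests as alternatives. Depth limits genes of few reads through counting error, which is not the only source of spread, as clones also differed.

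The genes and lists were chosen with earlier results of these data known. Members were taken by the stated rule. Genes named with values were the 10 members per direction with the largest smaller log2 ratio among those with a mean of at least 100 in both lines, every member called in HT29 or in a fixed list, those nearest to the thresholds, and *CTNNB1*. A gene that this rule chose is not reported here. HT29 was tested with limma 3.58.1 (R 4.3.3, trend and robust) on log2(value + 1), 4 KO against 4 WT libraries, two-sided, for genes that reached 10 in 4 or more of 8 libraries, with Benjamini-Hochberg adjustment over all tested genes. Fold changes on this scale understate those of low genes. The 4 libraries of a group are 2 clones in 2 rounds, so p-values measure mainly the spread between these libraries. HCT116 and SW480 were fitted alike for the gene lists alone. The fit was tested on simulated data in which every library varied on its own. Differences between clones were not simulated, so that test does not cover them. Alternatives used edgeR 4.0.16, DESeq2 1.42.0, other pseudocounts and filters, summed rounds, the round as a block and leaving out libraries or clones.

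Round letters paired the libraries in HCT116, where all 6 correlations of same-round deviations exceeded 0.1 (0.182 to 0.374), but not in HT29 (2 of 6) or SW480 (1 of 6). Python 3.11.15 with numpy 2.4.6, pandas 2.3.3 and matplotlib 3.10.9 served the remaining steps. Gene positions are those of GENCODE v44 lifted to GRCh37, and promoter windows those of RefSeq in GRCh38.p14.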

Additional observations from a re-analysis of the deposited data

Results flagged for a closer look

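The 131 genes meet by their own rule the condition that every KO library moved one way in HCT116 and the other way in SW480. That difference between the lines was not tested, since it chose the genes.

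Among 149 groups of 4 libraries with a mean of at least 10 that belong to the named genes, 7 held a library far from the other 3, where chance gives about 1 group in 20. In HT29 KO, round B of clone 38 was low for *C1orf116*, at 1573 normalized reads against 2781 to 2894 in the others. Round A of the same clone was high for *EPAS1*, at 3399 against 1506 to 1785, and for ENSG00000279806, at 163 against 91.5 to 98.5. The 2 HT29 KO libraries named here are therefore 2 rounds of 1 clone that differ from each other. In HCT116, KO clone 47 round A was low for *SEMA3A* (659 against 850 to 888), KO clone 44 round A was high for *KLF7* (211 against 138 to 145) and WT clone 6 round A was high for *EPAS1* (1269 against 877 to 933). In SW480, WT clone 4 round B was high for *KLF7* (1039 against 781 to 820). In each case WT and KO libraries of the line stayed apart, except for *C1orf116* in HT29, where the low KO library fell below the highest WT library.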

How the results depend on the processing

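The 131 genes depended on thresholds more than on scaling. Scaling by total reads (CPM) gave 128 genes, TMM scaling 130 and size factors set within each line, an alternative chosen after seeing the data, 134, of which 116, 125 and 130 were among the 131. A ratio threshold of 2 left 53 genes (17 higher and 36 lower in HCT116 KO), and a mean of 100 left 88, with 53 lower in HCT116 KO. Clone means in place of single libraries gave 187, with 75 higher in HCT116 KO. Round A libraries alone gave 205 (79 higher and 126 lower) and round B libraries alone 202 (91 higher). Leaving out 1 HCT116 or SW480 library gave 133 to 153 genes, 46 to 60 of them higher and 82 to 98 lower in HCT116 KO.

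The 8 members called in HT29 became 18 with DESeq2, 0 with the reads of each clone summed (15 at an unadjusted p under 0.05) and 5 with the round as a block. DESeq2 called 8.3% of all tested genes, the block fit 1.49% and the summed fit 0. Leaving out 1 library or clone gave 3 to 16, the 2 values of 16 coming without KO clone 28 or KO clone 38, where the remaining clone is assumed to vary like the other group. The called share of all genes moved with these counts, from 0.978% to 2.86% without 1 library and to 4.52% and 5.89% without KO clone 28 and KO clone 38. The medians of the HT29 log2 fold changes ran from -0.070 to 0.13 for the genes higher in HCT116 KO and from 0.0029 to 0.40 for the lower ones in these repeats. Other filters and pseudocounts gave 6 to 9 calls. In HT29, *PLEKHA4* changed sign, to 0.44 with DESeq2 and edgeR RLE and 0.45 with edgeR TMM, and no call was made in these 3. Among the repeats that left out libraries, sign changes occurred in *PLEKHA4* (-2.67 to 1.40), *CEMIP2* (-0.23 to 0.18), *TESC* (-3.45 to 0.051), *ABTB3* (-2.91 to 0.017) and *L3MBTL3* (-0.92 to 0.30). The causes were not tested. With the round as a block, a pairing chosen for the lists after seeing the data, list genes called were 41 in place of 39 in HCT116 and 81 in place of 82 in SW480.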
